A study of Mus musculus with 5 samples.

Results

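Th2-like T cells are described here in mouse kidneys after ischemia-reperfusion injury, in which the blood supply of an organ is stopped and then restored. Members were chosen by the transcripts detected in each cell: no Foxp3 molecule, at least 1 Cd3e molecule, and at least 2 detected genes among Il17rb, Pparg, Il13, Il5, Il4 and Il1rl1. This rule selected 483 of the 38417 cells retained (of 40778 barcodes in all), which is 1.78% of the 27190 retained cells with Cd3e and without Foxp3. The study sorted CD4 T cells from digested kidneys of 10-week-old mice after injury of 1 kidney and read them by 10x Genomics single-cell 3′ sequencing, in which each RNA molecule is counted once by a unique molecular identifier (UMI). The control group had 2 libraries. Its mice were Il1rl1fl/fl, meaning that loxP sites flank both copies of Il1rl1. The knockout group had 3 libraries, from Il1rl1fl/fl Foxp3YFP-Cre mice, which carry the same floxed alleles and make Cre recombinase, fused to a yellow fluorescent protein, under the control of Foxp3. Foxp3 marks regulatory T cells (Tregs), so the deletion was aimed at Tregs and not at the Foxp3-negative cells described here. The Cre allele is absent from the control group, so its presence and the deletion cannot be told apart. Whether the libraries stem from different animals is not stated in the labels, so p-values measure the spread between these libraries, which may be technical.

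T helper 2 (Th2) cells are CD4 T cells that arise under interleukin-4 and the transcription factor GATA3, and they are known for secreting IL-4, IL-5 and IL-13 in allergy, defence against worms and tissue repair. Tissue Th2 cells commonly carry ST2, encoded by Il1rl1, through which the alarmin IL-33 signals, and IL-17RB, the receptor for IL-25. They also use PPARγ, a nuclear receptor that controls the uptake and use of fatty acids. ST2 is likewise found on many tissue Tregs and on group 2 innate lymphoid cells, which have no CD3 or T cell receptor.

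The libraries held 4580 to 10899 barcodes and 31104939 to 152275841 UMIs, control 1 being the deepest. Pairs of libraries shared 2 to 36 retained barcodes. No barcode was a member in both libraries of a pair, and 1 member's barcode was also present in the other control library. Among Foxp3-positive Cd3e-positive cells, an Il1rl1 UMI was seen in 31.6% and 20.4% in the control libraries and in 56.0%, 24.8% and 22.5% in the knockout libraries. The labels do not give the floxed exons, and the counted tags lie at the 3′ end of transcripts, so these values do not check the deletion, and the genotypes are used as the labels give them. Members numbered 104 and 52 in the control libraries and 94, 113 and 120 in the knockout libraries. Of the 483, 436 had a Cd4 UMI. Their median depth was 23748 and 11544.5 UMIs per cell in the control libraries and 19850, 14806 and 11634.5 in the knockout libraries, against 14312, 4564, 8107, 4901 and 4657 in the other Foxp3-negative T cells of the same libraries. A rule that asks for several detected genes favours deeply read cells. The comparison of gene levels with other T cells is therefore also given against cells of the same library matched to the members on UMI total. The test for a difference in genotype effect between members and other T cells was run without such matching.

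The following values chose the members and are a description. Il1rl1 (chromosome 1, 40429570 to 40465415, plus strand, mm10) was detected in 87.8% of members and Pparg (chromosome 6, 115360951 to 115490399, plus strand) in 76.8%. Il17rb (chromosome 14, 29996135 to 30008896, minus strand) was detected in 37.1%. The cytokine genes were rarer, with Il4 in 23.0% of members (111 cells), Il5 in 2.90% (14 cells) and Il13 in 2.28% (11 cells). Il4 (chromosome 11, 53602982 to 53618669, minus strand), Il13 (53631324 to 53634702, minus strand) and Il5 (53720794 to 53725106, plus strand) form the Th2 cytokine cluster, with Rad50, a DNA repair gene (53649519 to 53707319, minus strand), lying between Il13 and Il5. Rad50 stood at 161 ± 36.0 CPM (a gene's counts per 1000000 UMIs summed over the cells of a library; SD, n = 5 libraries) in the members low in antigen-presenting cell transcripts and 126 ± 15.1 in matched cells, as defined below. That difference did not pass (adjusted p = 0.470 in edgeR's quasi-likelihood test).

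The pair Pparg and Il1rl1 alone admitted 239 members (49.5%). The triple of Il17rb, Pparg and Il1rl1 admitted 53, the pair Il17rb and Il1rl1 45, and the pair Il4 and Il1rl1 28. All 6 genes were never seen together, and 1 cell had 5 of them. In all, 365 cells had exactly 2 of the genes, just inside the rule, 93 had 3 and 25 had 4 or more, while 2859 Foxp3-negative T cells had 1 gene and fell just outside. Each marker was also found outside the rule: members held 51.4% of the Foxp3-negative T cells with an Il17rb UMI, 44.1% of those with Pparg, 37.6% of those with Il4 and 17.4% of those with Il1rl1. As a background for detection, none of 35, 39, 17, 5 and 11 B cells per library (at least 2 Cd79a UMIs and no Cd3e) had 2 of the 6 genes. These counts of 0 allow shares of up to 10.0%, 9.03%, 19.5%, 52.2% and 28.5% (exact Clopper-Pearson 95% limits), at median depths of 4529 to 10381 UMIs. The intervals and limits cover counting error only.

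GATA3 was not part of the rule, so its gene served as a check of the label. Gata3 (chromosome 2, 9857078 to 9890034, minus strand) stood at 92.7, 68.3, 77.8, 76.7 and 90.5 CPM in the T cells of control 1, control 2, knockout 1, knockout 2 and knockout 3 that had none of the 6 genes. In cells with 1 gene it was 118, 103, 94.8, 86.9 and 154 CPM, in the same order. In cells with exactly 2 genes it was 143, 241, 137, 122 and 236, and in cells with 3 it reached 339, 486, 386, 279 and 431. Gata3 was higher at each of these 3 steps in all 5 libraries, with its highest levels where 3 genes were detected. The label thus held for this gene against other Foxp3-negative T cells, over the summed cells. It held less well in the members rich in antigen-presenting cell transcripts described below. Gata3 did not pass between the members and the Foxp3-positive cells that met the same rule, a comparison also given below. Whether some members were Tregs with undetected Foxp3 was not tested. The cells with 4 or more genes numbered 2 to 13 per library and ranged from 217 to 1053 CPM, with no common direction from the cells with 3.

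**Figure D1:**
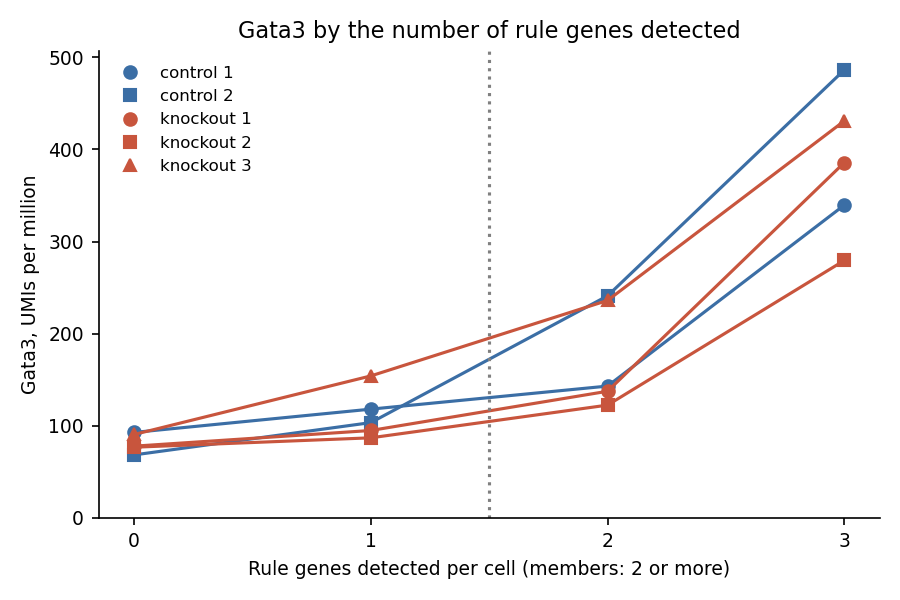
Gata3 in CPM (y axis) against the number of rule genes detected per Foxp3-negative Cd3e-positive cell (x axis, 0 to 3), 1 line per library; members lie right of the dotted line. In all 5 libraries the level climbs from 68.3 to 92.7 without any rule gene to 279 to 486 with 3.

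Cells rich in transcripts of antigen-presenting cells were more frequent among the members. The 27 genes of the macrophage, dendritic cell and B cell lists made up 0.5% or more of the UMIs in 175 of the 483 members (36.2%), against 7.95% of the other Foxp3-negative T cells and 25.3% of those matched on UMIs. The share was 51.9% of the members admitted by Pparg and Il1rl1 alone and 20.9% of those admitted by other combinations. It was 33.7% and 19.2% in the control libraries and 44.7%, 43.4% and 32.5% in the knockout libraries, so the lowest value was a control and the groups overlapped. Cells rich in these transcripts were also deeper, with median totals of 17441 to 43334 UMIs per library against 7936 to 18702 in the remaining members. In cells rich in these transcripts with neither Cd3e nor Foxp3, Pparg was detected in 8.24% to 12.9% and Il1rl1 in 1.79% to 7.26%, while 2 or more of the 6 genes were detected in at most 1.61%. Those cells had median depths of 3170 to 7769 UMIs, below those of the rich members. Detection of several genes depends on depth, so these shares cannot be set directly beside the members.

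Gata3 in the members rich in antigen-presenting cell transcripts was 94.7, 128, 74.3, 89.5 and 186 CPM, in the library order given above. In the other 308 members it was 330, 361, 426, 243 and 364, higher in each library and without overlap. Set beside the T cells with none of the 6 genes (68.3 to 92.7 CPM), Gata3 in the rich members was higher in control 2 and knockout 3, lower in knockout 1 and close by in control 1 and knockout 2. For these 175 members the Th2 label was thus not borne out by Gata3 in 3 of 5 libraries. Il17rb, a rule gene, was at 7.24, 41.1, 3.26, 7.02 and 28.0 CPM in the rich members and 62.4, 88.7, 83.6, 73.3 and 74.5 in the others. This order is partly set by the rule and is no check of the label. The pair Pparg and Il1rl1 alone, hence no Il17rb UMI, admitted 124 of the 175 rich members and 115 of the 308 others. Whether the rich members were pairs of cells in 1 droplet was not tested. No doublet caller was run, and each comparison is given with and without these cells, a choice made after the data were seen. Of 12 mast cell and basophil markers, Mcpt4, Mcpt8, Cma1, Ms4a2, Gata2, Prss34 and Tpsb2 had no UMI in any member, and the summed list reached 2.99 to 27.1 CPM against 1.95 to 4.12 in the other T cells, most of it Hdc, the histamine-forming enzyme, in all libraries but control 2, where 2 Kit UMIs made up the sum. The 5 genes enriched in group 2 innate lymphoid cells (Nmur1, Arg1, Calca, Kit and Ramp1) summed to 63.3 to 124 CPM in members, against 23.6 to 45.7 in the other T cells and 24.2 to 55.6 in matched cells, without overlap, and to 67.7 to 114 in the Foxp3-positive cells that met the same rule. Their part in the comparisons was not tested. In control 2, the library with the highest sum in members, 1 member held 35 of the 40 Calca UMIs. Cd8a and Cd8b1, which mark CD8 T cells, summed to 6.71 to 40.2 CPM in members and 23.6 to 65.8 in the other T cells.

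**Figure D2:**
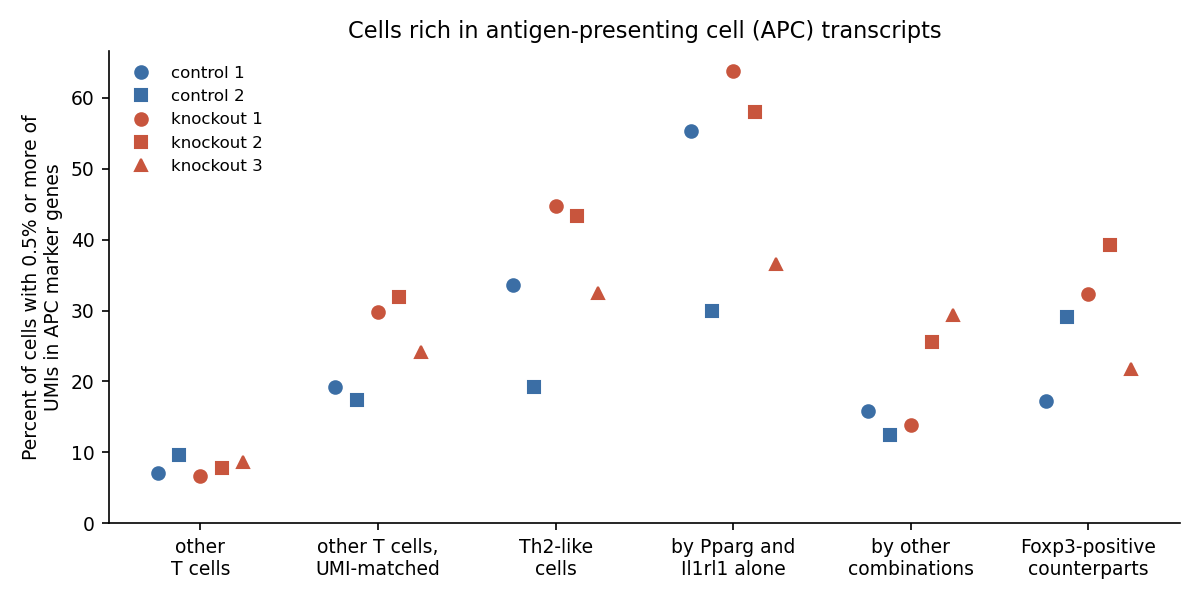
Percent of cells with 0.5% or more of their UMIs in antigen-presenting cell (APC) markers (y axis) in 6 groups of cells (x axis), 1 point per library. The members lie between 19.2% and 44.7%, the other T cells at 6.66% to 9.64%, and the members admitted by Pparg and Il1rl1 alone at 30.0% to 63.8%.

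The question for the genotypes was whether Th2-like cells were more or less common where Il1rl1 was deleted in Foxp3-expressing cells. Members made up 1.37% and 0.882% of Foxp3-negative T cells in the control libraries. In the knockout libraries they made up 2.96%, 1.60% and 3.45%. Every knockout library lay above both control libraries, and the means were 1.13% ± 0.345 (SD, n = 2) and 2.67% ± 0.956 (SD, n = 3), a ratio of 2.37. The exact two-sided permutation p was 0.2, the smallest that 2 libraries against 3 can give, so this design cannot pass 0.05. Without cells rich in antigen-presenting cell transcripts the shares were 0.981% and 0.789% against 1.78%, 0.991% and 2.57% (exact p = 0.2). There the highest control and the lowest knockout library lay within each other's exact Clopper-Pearson 95% intervals (0.764% to 1.24% and 0.764% to 1.26%).

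Part of the rule is the deleted gene itself. An Il1rl1 UMI was found in 3.82% and 2.72% of Foxp3-negative T cells in the control libraries and in 26.6%, 13.05% and 6.52% in the knockout libraries, without overlap. With cells thinned to 2000 UMIs, and Foxp3 and Cd3e judged on the thinned counts, these shares were 1.64% and 1.69% against 9.68%, 5.45% and 2.82%. As a background, the cells rich in antigen-presenting cell transcripts without Cd3e and Foxp3 had an Il1rl1 UMI in 3.60% and 1.79% in the control libraries and in 4.71% and 7.26% in knockout 1 and knockout 2, at median depths of 3170 to 7769 UMIs. In knockout 3 it was 6 of 100 such cells, beside 6.52% of its T cells. The T cells of control 1, control 2 and knockout 3 lay within 1 percentage point of these cells, and those of knockout 1 and knockout 2 above them. The T cells were deeper, at medians of 4592 to 14373 UMIs per library, so these shares cannot be set directly beside each other. Pparg was found in 2.58% and 1.95% against 4.04%, 3.15% and 5.20%, also without overlap. Il4 was found in 1.34% and 1.26% against 0.978%, 0.596% and 1.32%, with overlapping groups, and Il17rb in 1.33% and 0.9503% against 1.04%, 1.32% and 1.87%, likewise overlapping. With Il1rl1 left out of the rule (at least 2 of the other 5 genes), the shares were 0.540% and 0.322% against 0.662%, 0.525% and 1.52%. Control 1 then lay above knockout 2, and the exact permutation p was 0.4. With at least 3 of the 6 genes, the groups overlapped as well, at 0.369% and 0.204% against 0.568%, 0.326% and 1.06% (exact p = 0.4).

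The means also differed at equal depth. Each cell was thinned to 2000 UMIs, which left out 62, 590, 66, 429 and 205 Foxp3-negative T cells that were shallower. The whole rule, with Foxp3 and Cd3e, was then applied to the thinned counts. It kept 4742, 3720, 1900, 4806 and 2195 cells as Foxp3-negative with Cd3e. Cells that lost all Foxp3 UMIs in thinning can be among them. The share was 0.232% and 0.269% of these in the control libraries and 0.632%, 0.354% and 0.957% in the knockout libraries (exact permutation p = 0.2). These rest on 10 to 21 members per library. As a percent of all retained cells, the shares were 1.10% and 0.576% against 2.22%, 1.09% and 2.24%, so that control 1 and knockout 2 no longer stood apart.

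**Figure D3:**
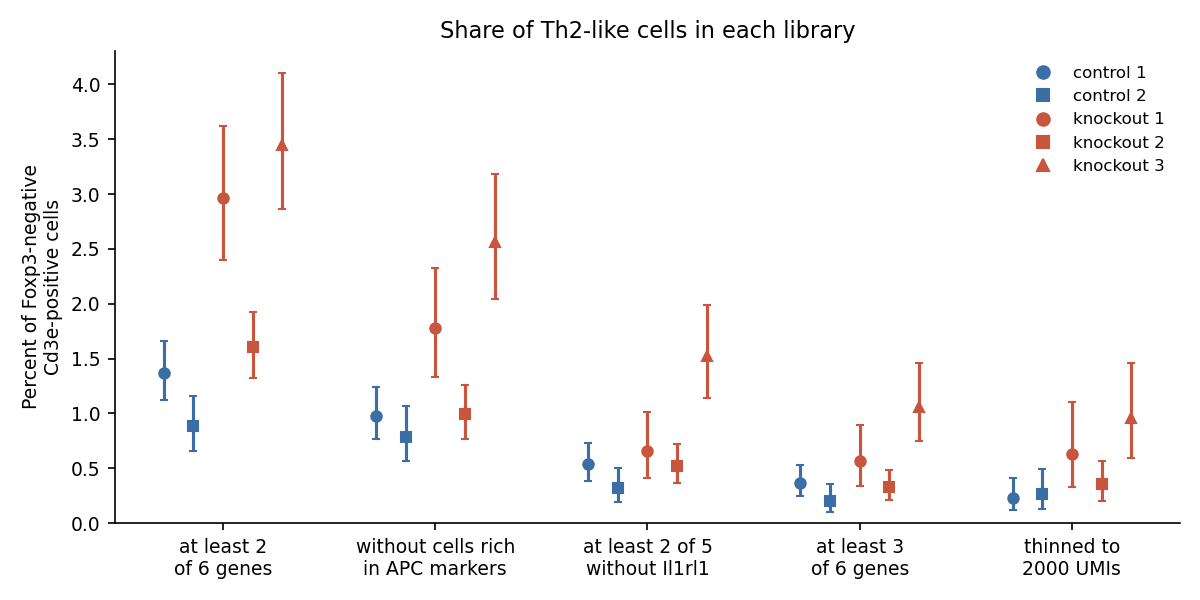
Th2-like cells as a percent of Foxp3-negative Cd3e-positive cells (y axis) under 5 rules (x axis); points are libraries and bars exact Clopper-Pearson 95% intervals, which cover counting error only. The knockout libraries lie at 1.60% to 3.45% and the control libraries at 0.882% and 1.37% under the full rule, and the groups overlap without Il1rl1 and with at least 3 genes.

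Th2-like cells were next compared with the 26707 other Foxp3-negative T cells of the same libraries, on counts summed per library and with the 8 genes of the rule left out (edgeR's quasi-likelihood test with the library as a term, Benjamini-Hochberg adjustment, threshold 0.05). CPM of this and the following tests use library sizes scaled by TMM. Of 12169 genes tested, 1258 (10.3%) were higher and 723 (5.94%) lower in Th2-like cells. Gata3, the master regulator of the Th2 fate, was higher at 219 ± 59.4 against 87.1 ± 10.8 CPM (log2 difference 1.27, SE 0.12, adjusted p = 5.5e-05, 5 of 5 libraries). Cysltr1, the leukotriene receptor found on Th2 cells, stood at 79.0 ± 15.9 against 13.2 ± 1.35 (log2 difference 2.60, SE 0.13, adjusted p = 2.4e-06). The other leading higher genes were Hdac9, Tanc2, Shtn1, Dach2, Plcl1, Apobec1, Cadm1, Zfhx3 and Psd3, each with a log2 difference of at least 1.44 (Plcl1). Dach2 rose furthest among these, from 2.19 ± 0.754 to 75.0 ± 50.4 CPM. Of the 10 leading higher genes, Cysltr1, Dach2 and Plcl1 also passed with at least 3 of the 6 genes, while the other 7 did not, and their log2 differences there ran from 0.35 (Hdac9) to 1.31 (Psd3). Against UMI-matched cells 9 of the 10 passed, Hdac9 at 0.74 and Cadm1 at 1.13, and Psd3 did not (0.90). With the cells rich in antigen-presenting cell transcripts also left out, Cysltr1, Dach2, Plcl1 and Apobec1 (0.77, adjusted p = 0.046 in edgeR's test) passed. Tanc2 (1.01) did not, and Hdac9, Shtn1, Cadm1, Zfhx3 and Psd3 were not tested there. The leading lower genes were Ms4a4b, Cmss1, Cxcr3, Camk1d, Gramd3, Ctsw, Lars2, Gimap4, Cdk8 and Ifi47, between -0.91 (Cmss1) and -0.54 (Ifi47). Against UMI-matched cells 5 of these no longer passed: Cmss1 (-0.05), Lars2 (-0.08), Cdk8 (-0.01), Ifi47 (-0.24) and Camk1d, which turned to 0.08.

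In this fit all 11 macrophage markers and 8 of 9 dendritic cell markers were higher as well, with median log2 differences of 1.80 and 1.71 beside -0.02 over all genes. Adgre1, the macrophage marker F4/80, stood at 81.1 ± 18.4 against 21.0 ± 9.08 CPM, and 11 of 12 T cell identity genes were lower, with a median of -0.35. The B cell markers went the other way, with 3 of 7 lower and 0 higher (median -0.72). Summed macrophage markers ranged from 1966 to 3885 CPM in members and 504 to 1259 in other T cells. With the rich cells left out on both sides and the comparison cells matched on UMI total, 111 of 7723 genes (1.44%) were higher and 62 (0.803%) lower. Of these 173 genes, 145 had been called in the same direction in the full comparison, which is 83.8% of the stricter calls and 7.32% of the 1981 full calls. The values below are from the stricter comparison, whose 308 members were chosen after the data were seen.

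In the stricter comparison Gata3 stood at 333, 365, 428, 239 and 363 CPM in members of control 1, control 2, knockout 1, knockout 2 and knockout 3. The matched cells of the same libraries had 108, 77.0, 83.1, 101 and 112. Every member value lay above every matched value, with a log2 difference of 1.80 (SE 0.14, adjusted p = 4.2e-06). Rbpj, the DNA-binding partner of Notch, was the other transcription factor of the Th2 list to pass, at 320 ± 98.6 against 212 ± 44.1 (log2 difference 0.57, SE 0.12, adjusted p = 0.021). The list had 13 of 16 genes tested, 2 higher and none lower, with a median of 0.16 against -0.01 over all genes. Maf, a cofactor of Il4 transcription, was at 192 ± 40.2 against 157 ± 6.51 and did not pass (adjusted p = 0.310).

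Surface receptors of Th2 cells were the list with the most calls: 7 of 14 tested were higher and none lower, with a median log2 difference of 0.65. This list did not set all members apart from the Foxp3-positive cells that met the same rule, a comparison given below. There 1 of 14 was higher and 1 lower (median -0.04). The summed list was at 1707 to 1983 CPM in all members and at 1945 to 2515 in those Foxp3-positive cells. Il2ra, the high-affinity chain of the IL-2 receptor (CD25), stood at 45.5, 241, 196, 95.2 and 151 CPM in members and 5.41, 53.5, 31.3, 41.1 and 28.1 in matched cells (log2 difference 2.23, SE 0.20, adjusted p = 1.7e-05). Members exceeded their own library's matched cells in all 5 libraries, while control 1 was the lowest on both sides. Cysltr1 was at 78.8, 66.1, 95.0, 88.4 and 74.4 in members and at 0.677, 4.28, 17.7, 9.59 and 11.0 in matched cells (log2 difference 3.38, SE 0.34, adjusted p = 3.6e-05), with no overlap. Cd200r1 (chromosome 16, 44765736 to 44794978, plus strand), an inhibitory receptor for CD200, was at 199 ± 36.7 against 80.6 ± 15.0 (log2 difference 1.31, SE 0.13, adjusted p = 3.6e-05).

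The other receptors that were higher were Ccr4, the Th2 chemokine receptor (52.1 ± 10.8 against 19.6 ± 8.58 CPM), Il9r, the receptor for IL-9 (30.9 ± 6.50 against 10.6 ± 4.11), Ptgir, the prostacyclin receptor (27.0 ± 10.3 against 7.27 ± 3.14), and Tnfrsf4, the costimulatory receptor OX40 (196 ± 47.1 against 106 ± 41.6). Il18r1, the IL-18 receptor chain, begins at 40465552 on chromosome 1, just downstream of Il1rl1 on the same strand, so tags at that border cannot be assigned to either gene with certainty. It was lower in the full comparison at 207 ± 110 against 286 ± 159 (log2 difference -0.44, adjusted p = 0.0023 in edgeR's test) and did not pass in the stricter one (log2 difference -0.53, adjusted p = 0.172).

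Leading genes outside the Th2 lists were led by Plxdc2, which encodes a plexin domain receptor, at 71.8 ± 15.5 against 3.10 ± 2.14 CPM (log2 difference 4.60, SE 0.28, adjusted p = 8.6e-07 in edgeR's test). Dach2, a transcription factor of the dachshund family (chromosome X, 113297510 to 113836386, plus strand), was at 194, 53.3, 75.5, 98.0 and 184 in members and 0.677, 0, 4.09, 5.48 and 7.32 in matched cells (log2 difference 5.27, SE 0.33). Matched control 2 cells had no Dach2 count, so the fitted value depends there on the prior count. Pard3, a cell polarity scaffold, was at 200 ± 67.4 against 23.5 ± 12.9 (log2 difference 3.08, SE 0.20). Kcnq5, a voltage-gated potassium channel (chromosome 1, 21398403 to 21961942, minus strand), was at 1092, 752, 987, 524 and 922 in members and 189, 297, 356, 162 and 273 in matched cells (log2 difference 1.78, SE 0.14). Plcl1, Ptpn13, Apbb2, Aff4 and Tmem64 completed the 10 leading higher genes, with log2 differences from 1.59 (Aff4) to 2.88 (Apbb2), each in 5 of 5 libraries.

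Genes of the Th1 program were lower. Of 14 Th1 genes tested, 6 were lower and none higher (median log2 difference -0.55). Cxcr3, the chemokine receptor that guides Th1 cells, stood at 105, 70.3, 78.3, 99.3 and 89.0 CPM in members and at 245, 180, 203, 175 and 209 in matched cells (log2 difference -1.19, SE 0.11, adjusted p = 2.3e-05). All members lay below all matched values. Tbx21, which encodes T-bet, the master regulator of Th1 cells, was at 69.8 ± 17.3 against 120 ± 17.2 (log2 difference -0.82, SE 0.13, adjusted p = 0.0027). Ccl5, a chemokine of activated Th1 and cytotoxic cells, was at 296 ± 94.4 against 585 ± 154 (log2 difference -1.01), and Nkg7, a cytotoxic granule protein, at 214 ± 78.4 against 380 ± 81.8 (log2 difference -0.84). Gzmk, a granule protease, and Hopx, a homeobox protein of effector cells, were also lower, at log2 differences of -1.81 and -0.56. Ifng, which encodes interferon γ, was at 33.1 ± 13.7 against 45.7 ± 18.3 and did not pass here (adjusted p = 0.382), although it was lower in the full comparison (log2 difference -0.92, adjusted p = 0.00038).

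**Figure D4:**
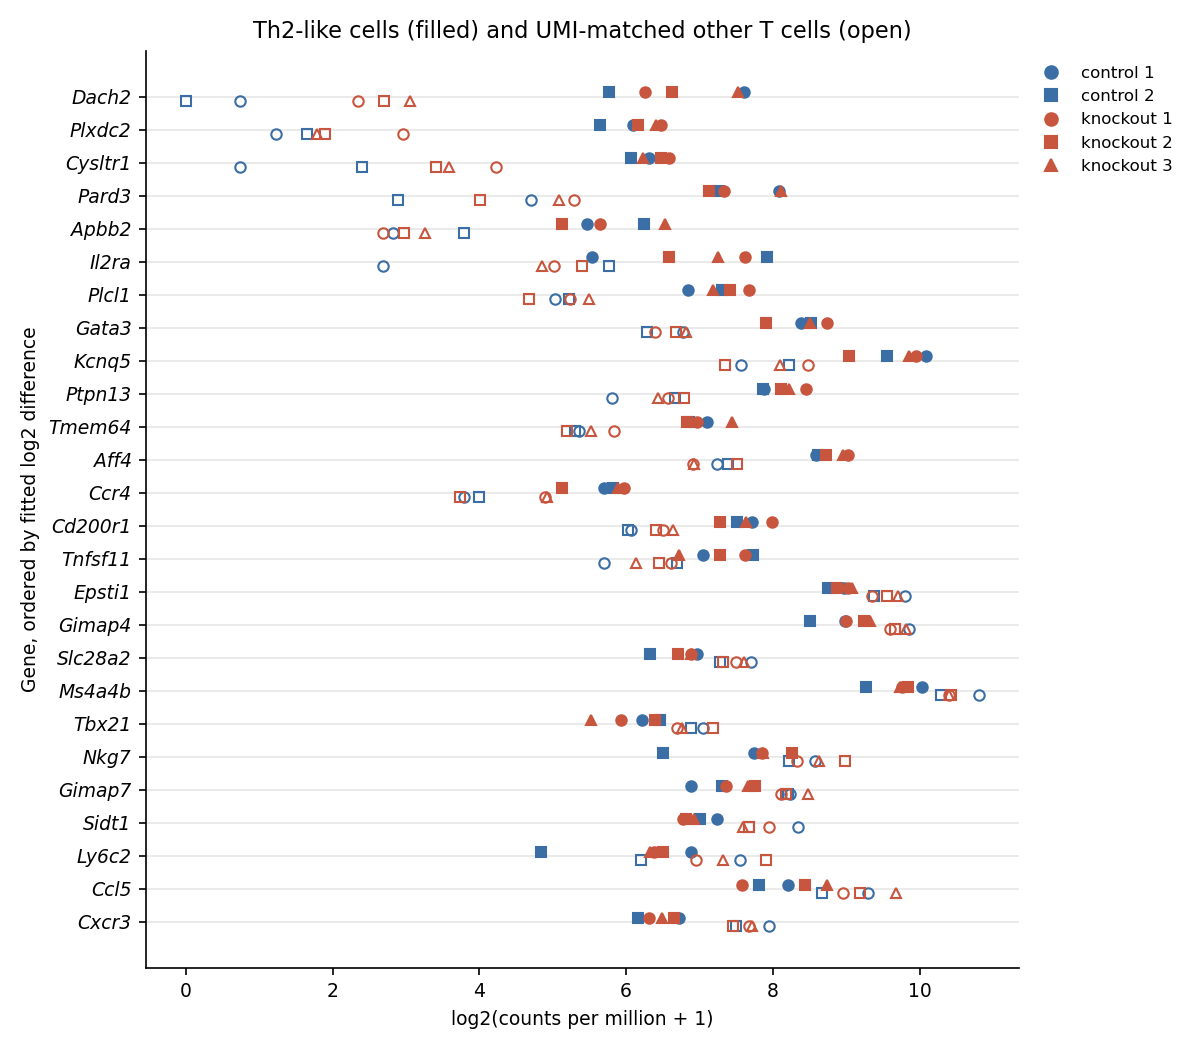
Level in log2(CPM + 1) (x axis) of 26 genes (y axis), without cells rich in antigen-presenting cell transcripts; filled symbols are Th2-like cells, open symbols UMI-matched other Foxp3-negative T cells, and colour and shape give the library. Gata3, Cysltr1 and Cd200r1 do not overlap between both kinds of cell, and Cxcr3 and Tbx21 lie lower in Th2-like cells.

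The remaining leading lower genes were Ms4a4b, a membrane protein of T cells, Gimap4 and Gimap7, GTPases of lymphocyte survival, the interferon-responsive Epsti1, Ly6c2, a surface protein of effector cells with a near-identical neighbour, Sidt1 and Slc28a2, a nucleoside transporter, at log2 differences from -0.95 (Ly6c2) to -0.63 (Epsti1). Ccr2, a receptor of monocytes and memory T cells, was higher in both comparisons (log2 differences 0.63 and 0.60). Itgb1, the β1 integrin chain, was lower in both (-0.46 and -0.59).

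Calls among the fatty acid and PPARγ target genes were fewer in the stricter comparison. In the full comparison 5 of 16 tested were higher, among them Cd36, a fatty acid transporter (39.2 ± 14.6 against 10.8 ± 3.78 CPM), Lpl, a lipase of macrophages and fat (47.2 ± 21.8 against 12.6 ± 5.33), Acsl1, which activates fatty acids (38.1 ± 4.53 against 18.1 ± 1.10), and Plin2, a lipid droplet coat protein (35.4 ± 16.4 against 18.9 ± 4.49). With the rich cells removed alone, 2 of 15 were higher (Dgat1 and Cd36), and with UMI matching alone 3 of 13 (Lpl, Cd36 and Plin2). In the stricter comparison, which does both, none of 10 tested passed. Cpt1a, the gatekeeper of fatty acid oxidation, was closest, at 42.8 ± 9.33 against 26.4 ± 8.31 (log2 difference 0.75, adjusted p = 0.052). Among 20 genes of IL-33 receptor signalling, 5 were higher in the full comparison, led by Nfkbiz, an atypical regulator of NF-κB (log2 difference 0.52, adjusted p = 0.00029). In the stricter comparison only Tnfaip3, the NF-κB inhibitor A20, passed, at 129 ± 39.8 against 71.9 ± 23.6 (log2 difference 0.83, adjusted p = 0.0011).

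Other lists also had fewer calls in the stricter comparison, which sums fewer cells. T cell identity genes went from 11 lower of 12 (median log2 difference -0.35) to 7 of 12 without the rich cells (-0.29), 2 of 12 with matching (-0.21) and 0 of 12 with both (-0.21). Naive T cell genes were 8 lower of 9 in the full comparison (-0.58) and without the rich cells (-0.75), and 0 of 9 with matching (-0.25) and 0 of 8 with both (-0.31). Immediate early genes went from 6 higher of 15 (0.51) to 3 of 15 without the rich cells (0.52), 2 of 14 with matching (0.22) and 0 of 8 with both (0.33). Treg genes went from 5 higher of 11 (0.54) to 5 of 11 without the rich cells (0.88), 2 of 11 with matching (0.57) and 3 of 9 with both (0.49), none lower. The last were Il2ra, also on the Th2 receptor list, Nrp1, which encodes neuropilin-1, and Tnfrsf9, the costimulatory receptor 4-1BB. Summed Treg genes were at 857.4 to 1197 CPM in all members, 677.3 to 848.5 in the other T cells and 2269 to 3929 in the Foxp3-positive cells that met the same rule. H2-Ab1, a class II antigen presentation gene, was still higher there (60.3 ± 35.4 against 25.9 ± 20.9 CPM, adjusted p = 0.0029), and 5 tested macrophage genes had a median log2 difference of 0.58 with none called.

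Secreted products were measured in few members. Of the 16 listed, Il9, Il24 and Il31 had no UMI in any member. Tnfsf11, which encodes RANKL, was the broadly detected product: 60, 33, 65, 67 and 68 members had a UMI in control 1, control 2, knockout 1, knockout 2 and knockout 3. It was at 131, 211, 196, 154 and 105 CPM in members and 50.7, 103, 96.8, 86.3 and 69.5 in matched cells (log2 difference 0.99, SE 0.13, adjusted p = 0.00039 in edgeR's test), higher in each library. Areg, the repair factor amphiregulin, was at 10.6 ± 10.2 against 1.51 ± 1.08 in the full comparison (log2 difference 2.73, adjusted p = 0.00088), with no UMI in the members of control 2. Calca, which encodes calcitonin gene-related peptide, was at 19.7 ± 23.8 against 0.575 ± 0.444 (log2 difference 4.64, adjusted p = 0.00029 in edgeR's test), an SD larger than the mean. It was detected in 2, 3, 1, 2 and 12 members, in the same library order. In control 1, control 2 and knockout 1, 1 member each held 16 of 23, 35 of 40 and 3 of 3 Calca UMIs. Hpgds, the prostaglandin D synthase of Th2 cells, mast cells and some macrophages, was at 37.3 ± 8.63 against 10.7 ± 2.81, but at 6.15, 10.6, 4.18, 13.7 and 16.9 CPM in the members not rich in antigen-presenting cell transcripts.

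Several effector transcripts came from single cells, which the sums over a library hide. The genes in this paragraph were singled out after their values were seen. In knockout 1, 1 member held all 57 Il3 UMIs, 132 of 146 Csf2 UMIs (90.4%) and 911 of 1149 Ccl1 UMIs (79.3%), and it also led in Tnfsf11. That cell had 33609 UMIs, was detected for Pparg and Il1rl1, had no UMI of Il4, Il5 or Il13 and was not rich in antigen-presenting cell transcripts. Another member of that library held all 35 Il13 UMIs and 26 of 46 Il4 UMIs. In knockout 3, 1 member held 102 of 138 Il4 UMIs (73.9%), in control 2 1 member held all 160 Penk UMIs, and in control 1 1 member held 203 of 211 Ccl1 UMIs (96.2%). In control 1, control 2 and knockout 2 the member with most Il4 held 8.20%, 13.3% and 21.4% of its UMIs. Il5 had 0 to 11 UMIs per library, too few to describe its spread.

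Members were then split by their cytokines. A UMI of Il4, Il5 or Il13 was found in 126 of 483 members (26.1%), that is in 35.6% and 25.0% in the control libraries and in 19.1%, 18.6% and 30.8% in the knockout libraries, with overlapping groups. None of 8202 genes passed between cytokine-positive and cytokine-negative members (0% called, edgeR's quasi-likelihood test with the library as a term), 838 had an unadjusted p under 0.05, and DESeq2 called 13. Gata3 was at 303 ± 78.5 against 206.5 ± 74.7 CPM, higher in 4 of 5 libraries (log2 difference 0.59, adjusted p = 0.359). Kcnq5 was at 1292, 856, 1179, 602 and 645 in cytokine-positive and 431, 600, 329, 271 and 630 in cytokine-negative members (log2 difference 1.04, SE 0.22, adjusted p = 0.280), higher in each library by a margin that was small in knockout 3. Samsn1, a signalling adaptor, Asb2, a ubiquitin ligase subunit of Th2 cells, and Mcm3, a replication helicase subunit, were the other leading positive genes (log2 differences 0.58 in all 3, adjusted p = 0.280).

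The lowest values were those of Gnaq, a G protein subunit, at 82.6 ± 19.1 against 178 ± 21.8 CPM (log2 difference -1.09, adjusted p = 0.063), and of the myeloid chemokine Ccl6 (18.1 ± 9.84 against 59.1 ± 36.3), Myof (15.7 ± 7.09 against 52.0 ± 18.8) and Pid1 (120 ± 33.4 against 322 ± 178). Cells rich in antigen-presenting cell transcripts were 22.2% of cytokine-positive and 41.2% of cytokine-negative members, and all 11 macrophage markers were negative, with a median log2 difference of -0.92 beside 0.01 over all genes. The part of the rich cells in the split was not tested. The smallest adjusted p in edgeR's test was 0.063 over 8202 genes with those cells and 0.396 over 6035 genes without them. All 16 cell cycle genes were positive (median 0.65), none called. Without knockout 3, edgeR called 6 genes, all lower in cytokine-positive members: Ctla4, Penk, Tyrobp, Selenop, Alcam and Gnaq.

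Foxp3-positive cells that met the same rule, 203 in all (64, 31, 34, 51 and 23 per library), are the nearest Treg counterparts and were added as a comparison after the data were seen. Of 9387 genes, 28 (0.298%) were higher and 66 (0.703%) lower in Th2-like cells. Gata3 did not pass between them, at 224 ± 61.9 against 181 ± 36.0 CPM (log2 difference 0.23, SE 0.18, adjusted p = 0.716), higher in 3 of 5 libraries. Of 11 Treg genes tested, 9 were lower and none higher (median log2 difference -1.74). Ctla4, the checkpoint receptor of Tregs, stood at 48.9, 59.1, 82.1, 33.4 and 45.6 in Th2-like cells and 338, 356, 330, 139 and 166 in the counterparts (log2 difference -2.28, SE 0.14, adjusted p = 1.4e-05), without overlap. Ikzf2, which encodes Helios, was at 193 ± 93.7 against 1284 ± 487 (log2 difference -2.78), and Itgb8, an integrin that activates TGF-β, at 5.34 ± 3.80 against 47.4 ± 20.9 (log2 difference -3.19).

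On the higher side stood Ccl1, a ligand of the Th2 and Treg receptor CCR8, at 71.7, 105, 507, 93.8 and 65.1 CPM in Th2-like cells and 5.56, 4.27, 1.97, 13.4 and 8.44 in the counterparts (log2 difference 4.40, SE 0.44, adjusted p = 0.00088). It was higher in each library but detected in 4 to 9 members per library. Cxcr6, a receptor of tissue T cells, was higher against the counterparts (236 ± 48.9 against 128 ± 40.4, log2 difference 0.90) and lower against other Foxp3-negative T cells (log2 difference -0.41). Dach2 (76.5 ± 51.0 against 18.3 ± 22.4, log2 difference 2.42) and Cysltr1 (80.6 ± 15.9 against 39.5 ± 9.11, log2 difference 1.12) were higher in Th2-like cells than in both groups. Tnfrsf4 was lower than in the counterparts (log2 difference -1.30) and Il2ra was at 91.4 ± 54.3 against 182 ± 53.9 (log2 difference -1.21, adjusted p = 0.054). Cells rich in antigen-presenting cell transcripts were 27.6% of the counterparts, and without such cells 184 genes passed, 76 of them among the 94. The count rested on the knockout libraries in part: it was 30 without knockout 1 and 48 without knockout 3.

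Between the genotypes, no gene passed within Th2-like cells. Of 10202 genes tested in summed counts (edgeR's quasi-likelihood test), 0 passed (0% called), 398 had an unadjusted p under 0.05, and DESeq2 called 4: C1qa, C1qb, C1qc and Hist1h2ae. Gata3 stood at 216 and 296 CPM in the control libraries and 185, 147 and 274 in the knockout libraries (log2 difference -0.33, SE 0.26, adjusted p = 1.00), with overlapping groups. Without cells rich in antigen-presenting cell transcripts it was 335 and 363 against 426, 241 and 360 (log2 difference -0.02, SE 0.22). None of the 15 tested Th2 transcription factors, 14 surface receptors or 8 secreted products was called, and their median log2 differences were 0.01, 0.06 and 0.23 beside -0.01 over all genes.

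Of the single Th2 genes, Cd200r1 was at 196 and 192 CPM in control members and 147, 110 and 167 in knockout members (log2 difference -0.46, SE 0.18, adjusted p = 1.00 in edgeR's test). Those groups did not overlap, but without cells rich in antigen-presenting cell transcripts they did, at 210 and 180 against 252, 155 and 196. Csf2, which encodes GM-CSF, had a log2 difference of 4.66 (SE 1.57) that rested on knockout 1 and knockout 3, where 1 member each held most of its UMIs. Areg was at 8.85 and 0 against 27.7, 10.0 and 7.28 (log2 difference 1.25, SE 0.78). Il2ra, at 36.7 and 177 against 78.3, 58.5 and 105, differed more between the control libraries than between the groups. The rule gene Il4 stood at 20.3 and 22.5 CPM against 20.4, 15.0 and 84.2, and Il1rl1 at 187 and 192 against 159, 138 and 223, which are levels in cells chosen for them.

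**Figure D5:**
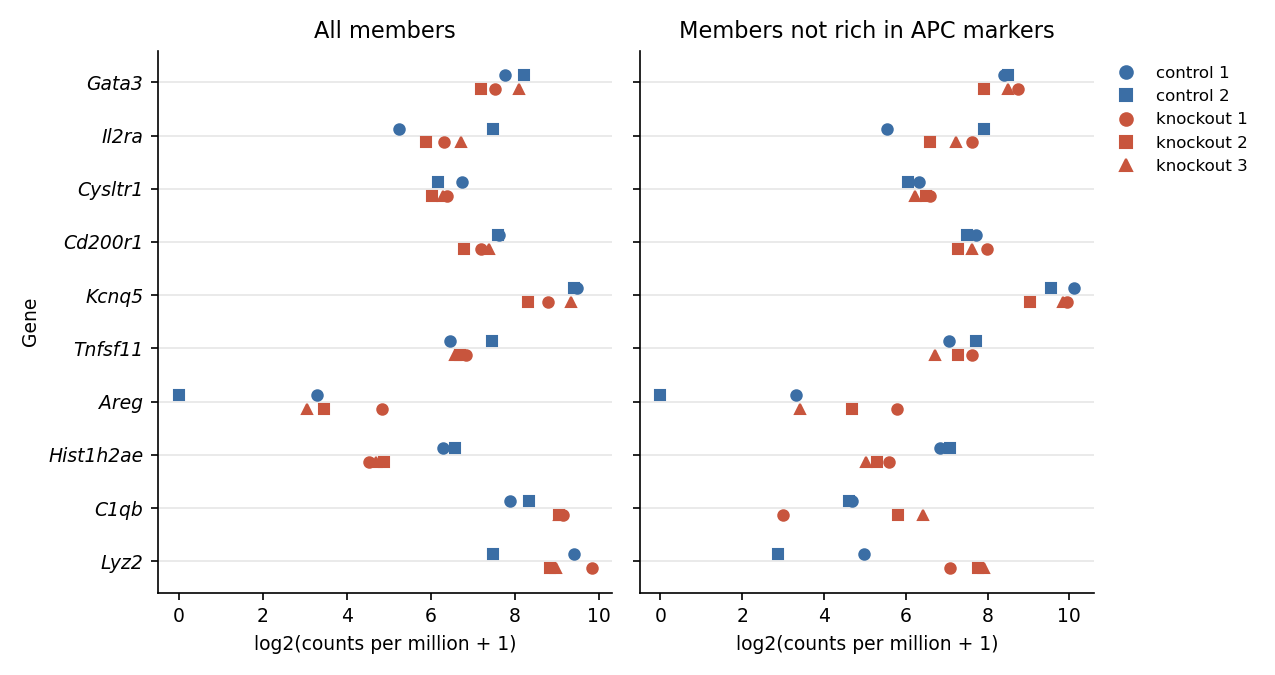
Level in log2(CPM + 1) (x axis) of 10 genes (y axis) in the Th2-like cells of each library, all members (left) and members not rich in antigen-presenting cell (APC) transcripts (right). Gata3 and Il2ra overlap between control and knockout in both panels. Hist1h2ae and, on the left, C1qb do not, which was a condition for naming them.

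The genes with the smallest p between genotypes were macrophage genes on the higher side. C1qc and C1qb, which encode complement C1q chains, stood at 204 and 225 against 415, 370 and 412 CPM (log2 difference 0.90, SE 0.13, adjusted p = 0.429) and at 236 and 324 against 567, 532 and 526 (log2 difference 0.97, SE 0.16, adjusted p = 0.429). Mertk, a receptor for dying cells, was at 5.44 and 3.02 against 22.0, 20.6 and 26.7 (log2 difference 2.23, SE 0.34), and Lpl at 25.2 and 25.7 against 73.5, 62.7 and 52.8. Without cells of high UMI totals, C1qc and C1qb turned to log2 differences of -0.91 and -0.84 (adjusted p = 0.999 in edgeR's test). In the fit of all members the groups did not overlap for C1qc, C1qb, Mertk and Lpl, which was a condition for naming them. The summed macrophage markers were at 1966 to 1996 CPM in control members and 3086 to 3885 in knockout members. Without the rich cells, Lyz2, the macrophage lysozyme, had the smallest p on the higher side, at 30.7 and 6.36 against 135, 218 and 239 (log2 difference 3.11, SE 0.41, adjusted p = 0.098), followed by the myeloid genes Fcer1g, Gab2 and Lyn at log2 differences of 2.20, 2.62 and 1.69.

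On the lower side, Hist1h2ae, a replication-dependent histone gene whose reads are hard to tell from those of near-identical copies, had the smallest p of all, at 77.2 and 95.2 CPM against 22.0, 28.5 and 24.9 (log2 difference -1.75, SE 0.19, adjusted p = 0.171 in edgeR's test). It was at 113 and 134 against 47.3, 38.4 and 31.4 without the rich cells (adjusted p = 0.098), where 2 other histone genes, Hist1h3f and Hist1h4c, followed at log2 differences of -1.61 and -1.49. Klrd1, an NK cell receptor chain (68.7 and 30.2 against 10.6, 20.0 and 14.0), Alox5, the first enzyme of leukotriene synthesis (9.87 and 16.6 against 0, 1.58 and 1.21), and Adam23 (14.3 and 9.07 against 3.08, 2.64 and 1.21) did not pass (adjusted p = 0.802 in edgeR's test). Their groups did not overlap, which was a condition for naming them.

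Whole lists leaned one way with no gene called. Over all 10202 genes, 48.7% were positive, with a median log2 difference of -0.01. Without the rich cells 50.9% of all genes were positive, and in the interaction 49.9%. Of 16 Th1 genes, 15 were positive in knockout members (median log2 difference 0.67), among them Nkg7 at 147 ± 34.2 (n = 2) against 275 ± 86.9 (n = 3) CPM. Without the cells rich in antigen-presenting cell transcripts, 10 of 15 Th1 genes were positive (median 0.29), and in the interaction with other T cells 10 of 16 (median 0.17). The 7 tested Th17 genes were all positive (median 1.33), but their summed levels overlapped, at 319 and 135 CPM against 557, 339 and 258. Without the rich cells 2 of 3 tested Th17 genes were positive (median 0.98), and the interaction median was 0.24. All 11 heat shock genes were negative (median -0.76, and -0.62 without the rich cells). Summed heat shock genes were at 7286 CPM in the members of control 2 and at 3194 to 3938 in those of the other libraries, and the other T cells of control 2 had 6113 against 3109 to 4051, so that library stood apart in both kinds of cell.

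The difference between the genotype effect in Th2-like cells and in other Foxp3-negative T cells was tested directly as an interaction, without matching on UMI total. Of 13277 genes, none passed (0% called, edgeR's quasi-likelihood test with the library as a term, smallest adjusted p 0.442), 529 had an unadjusted p under 0.05, and DESeq2 called 0. For Gata3 the log2 excess of Th2-like over other T cells was 1.12 and 1.93 in the control libraries and 1.11, 0.83 and 1.42 in the knockout libraries (interaction -0.35, SE 0.22, adjusted p = 1.00). For Cd200r1 it was 1.06 and 1.25 against 0.63, 0.28 and 0.57 (interaction -0.64, SE 0.14, adjusted p = 1.00), and for Plxdc2 3.70 and 2.94 against 2.56, 1.98 and 2.22 (interaction -1.12, SE 0.23). Klrd1 had an interaction of -1.60. On the positive side were Igfbp4 (1.52), Bach2 (0.52), Kif1b (0.51) and the plasma cell gene Jchain (6.61), whose counts in members came almost wholly from knockout 1.

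The count for the interaction moved with the libraries kept: 105 genes passed without control 1, 13 without control 2 and 1, Jchain, without knockout 2. Within Th2-like cells, 3 genes passed between genotypes without control 2, all lower in knockout members, among them Hist1h2ap and Il31ra, the receptor for IL-31.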

How the data were processed

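Raw counts (UMIs of each gene in each barcode) were analysed as deposited; per the file headers the matrices come from Cell Ranger 8.0.0. Tools listed by the submitters' processing notes are Cell Ranger 8.0 and Seurat 5.1.0, with genome mm10. Barcodes with at least 500 genes and under 10% mitochondrial UMIs were kept. Gene positions are from GENCODE M21. Counts of member cells were summed per library and tested with edgeR 4.0.16 (quasi-likelihood test, TMM, filterByExpr, Benjamini-Hochberg, threshold 0.05), and CPM use the TMM library sizes (levels by number of rule genes, by list and by antigen-presenting cell transcripts are unscaled); DESeq2 1.42.0 was an alternative. Other tools were R 4.3.3, Python 3.11.15, numpy 2.4.6, pandas 2.3.3, scipy 1.17.1 and matplotlib 3.10.9. The comparison with Foxp3-positive cells and the 0.5% limit for antigen-presenting cell transcripts were added after the data were seen, and no doublet caller was run. The fits were also run on counts simulated from their own fitted means and dispersions, which does not test whether that model suits these data. Shares were compared by exact two-sided permutation.

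The members and gene lists (26) were chosen with earlier results of these data known. Named genes are, per comparison and direction, up to 10 with the smallest p that passed and whose libraries did not overlap (genotype, interaction) or moved the same way in all 5 (others), filled to 4 where fewer passed. Rule genes, receptor segments, unnamed gene models, sex-linked and ribosomal genes were left out, and 2 to 4 list members and Gata3 were added. A few genes that these rules select are not reported here. Alternatives are in the closing section.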

Additional observations from a re-analysis of the deposited data

How the results depend on the processing

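The mean share of Th2-like cells was higher in the knockout group under all 15 alternatives. The difference was 1.16 to 2.08 percentage points with a library left out and 0.136 to 1.77 under the others. The groups overlapped in 4 of them: at least 3 genes, without Il1rl1, percent of all retained cells, and without cells of high UMI totals (difference 0.610, where control 1 had 1.03% and knockout 2 0.715%). Between genotypes, edgeR called 0 genes and 0 to 3 with a library left out. DESeq2 called 4, the fit without a filter on low counts 155, the fit without cells of high UMI totals 2 (Egr3 and Ccl1), and the fit without cells with markers of other cell types 2 (Hist1h1b and Ifit1), which left 4 members in control 1. Without cells of high UMI totals C1qc and C1qb, not called, turned to -0.91 and -0.84. The replicate block called 1 gene, Cxcl9. The labels do not say that the numbers pair the libraries, only 2 are shared, and same-numbered libraries correlated across genes at 0.29 and -0.05.

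Against other T cells, 1351 to 2273 genes passed with a library left out, and fewer than the 1981 in these settings: 386 with UMI-matched cells, 233 with at least 3 of the 6 genes, 298 without Il1rl1 in the rule, 598 without cells of high UMI totals, 190 without cells with other markers, 689 without cells rich in antigen-presenting cell transcripts, 173 with that and matching, and 195 with that and without Il1rl1. Over single genes named for this comparison and its alternatives, 50 values no longer passed and 6 turned in sign. Turned in sign were Apobec1 (-0.15 without cells with other markers), Camk1d (0.0835 and 0.0618 with matching, before and after removal of the rich cells), and Cmss1 (0.0015), Lars2 (0.0335) and Cdk8 (0.0674) with matching and removal. The cause was not tested.

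For the interaction, 0 to 105 genes passed with a library left out, 69 without a filter, 4 with at least 3 genes, 5 without Il1rl1 and 1, Lyz2, without rich cells. For the cytokine split these were 0 to 6, with 13 in DESeq2, 386 without a filter and 5 with matched UMIs. Against Foxp3-positive counterparts they were 30 to 118, with 624 without a filter and 184 without rich cells.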

Other observations

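Several lists not described above moved in the comparison of Th2-like with other Foxp3-negative T cells (edgeR's quasi-likelihood test). Of 15 genes of tissue residence and migration, 9 were lower and 2 higher in the full comparison, and 2 of 14 were lower, among them Itgb1, and 1 higher (Ccr2) without cells rich in antigen-presenting cell transcripts and with matched UMIs. Of 12 type I interferon response genes, 5 were lower, among them Ifit3, Mx1, Rsad2 and Isg15, in the full comparison and none of 10 in the stricter one, where the median log2 difference was -0.44. None of 16 cell cycle genes passed in either. Ramp1, a subunit of the receptor for calcitonin gene-related peptide that is known from group 2 innate lymphoid cells, was higher in both, with a log2 difference of 1.03 in the stricter comparison. Among inhibitory receptors, Havcr2, which encodes TIM-3, was higher and Btla lower in the full comparison, and none of 7 passed in the stricter one. Against the Foxp3-positive counterparts, Tigit and Tox were lower in Th2-like cells besides Ctla4, 3 of 9 inhibitory receptor genes tested.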
